A study of Homo sapiens with 11 samples.

Results

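The comparison described here sets MI-503 against its solvent in MOLM-13, a line of human myeloid leukemia cells with a rearranged KMT2A gene. Its members are 8 of the 11 RNA-seq libraries of the series, 4 from cells kept for 72 h in DMSO and 4 from cells kept for 72 h in 1 µM MI-503, chosen by the group given in their labels. The remaining 3 libraries, from cells given MI-503 with the PSMB8 inhibitor PR-957, are not compared here. All libraries come from a single cell line, and the labels do not state whether replicates were separate cultures, so that p-values measure the spread among these samples.

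MI-503 occupies the pocket of Menin through which this scaffold protein binds KMT2A and its fusion products. Menin-bound KMT2A fusions keep blasts of this leukemia in an immature, self-renewing state, and loss of that binding is known to let such cells take on features of monocytes and granulocytes. Maturing phagocytes gain surface receptors, granule proteins, adhesion molecules and lysosomes, whereas dividing blasts spend much of their RNA on ribosome assembly, amino acid supply and DNA synthesis. The account follows pathways and gene families, and the genes that KMT2A fusions bind directly are not treated as a group, although some, such as FLT3, appear among the members.

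Between 21.5 and 34.6 M fragments were counted to genes per library, and 24863 of the 38557 genes in the annotation were counted in at least 1 library. Values are given as CPM, the counts of a gene per M counted fragments after the library totals had been scaled by TMM (trimmed mean of M-values), and a difference is given as the log2 fold change of MI-503 over DMSO with its standard error (SE). CPM were not divided by gene length, so that levels are compared between libraries and not between genes. Principal component analysis separated the groups along its first axis, which carried 68.1% of the variance, with DMSO between -32.9 and -22.6 and MI-503 between 27.4 and 32.5. On the second axis, with 7.95%, DMSO replicate 2 stood apart, at -22.4 against 5.1 to 7.26 in the other DMSO libraries. The MI-503 libraries split on the same axis, with replicates 1 and 2 at -6.91 and -4.81 and replicates 3 and 4 at 8.3 and 7.59, and counts differed less within these pairs (chi-square per degree of freedom 1.92 and 2.36) than between them (4.3 to 5.98). With DMSO replicate 2 left out, 707 genes in place of 579 were called at least 2-fold higher in MI-503, and in each of the lists the count called in either direction moved by 3 members at most.

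A total of 13904 genes had enough counts for edgeR's quasi-likelihood test. Enough counts in a single group sufficed, so some scarce genes, such as CLEC12A and CMKLR1, were tested only through their level in MI-503. Counts and medians of lists with many scarce members therefore depend in part on this filter. A gene was called where the adjusted p was under 0.05. By this rule 29.3% of them (4079 genes) stood higher in MI-503 and 28.6% (3977 genes) stood lower. The count of members called in each list is to be read against these percentages. Lists and members were chosen with earlier results of these data known, so that reading describes them and is not a test. At least 2-fold differences were held by 579 genes higher (4.16%) and 155 genes lower (1.11%) in MI-503. Most called differences were small, as 90.9% of the called genes lay within 2-fold, and the median size over all called genes was 0.33 in log2 units. The groups did not overlap in 7101 tested genes (51.1%). The median log2 fold change over all tested genes was 0.011, which is the reference for the medians of the lists.

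The cell type was checked on marker lists. Of 12 myelomonocytic markers 10 were tested, among them SPI1, CD33, CSF1R, LYZ and MPO, and 9 of these were higher in MI-503. Markers of other lineages were mostly out of range, since only 4 of 20 erythroid and megakaryocytic and 5 of 21 lymphoid markers had enough counts to be tested, with CD2, CD3G and LCK at 0 in all libraries. Of the tested ones, the erythropoietin receptor EPOR rose and the transferrin receptor TFRC fell, while 3 of the 5 lymphoid markers (CD79A, NCAM1 and NKG7) rose and PAX5 fell. NKG7, a granule membrane protein of cytotoxic lymphocytes, was at 12.1, 16.9, 15.2 and 13.4 CPM in DMSO and 37.0, 37.0, 37.5 and 35.9 CPM in MI-503 (log2 fold change 1.36, SE 0.071, edgeR adjusted p = 6.06e-13), and its groups did not overlap. The part of these markers in the other results was not tested. Of 15 stem and progenitor markers 7 were tested and 6 were higher, KIT and CLEC12A among them. KIT was scarce in DMSO, at 0.628 CPM in replicate 2 and 0.321 to 0.358 CPM in the other libraries. CLEC12A is also a lectin of myeloid cells in general and is counted among the receptors below, so its rise is not particular to stem cells. The stem cell marker CD34 and the monocyte receptor CD14 both stayed below the filter. In bulk RNA a change in the make-up of the culture cannot be told apart from a change per cell.

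**Figure D1:**
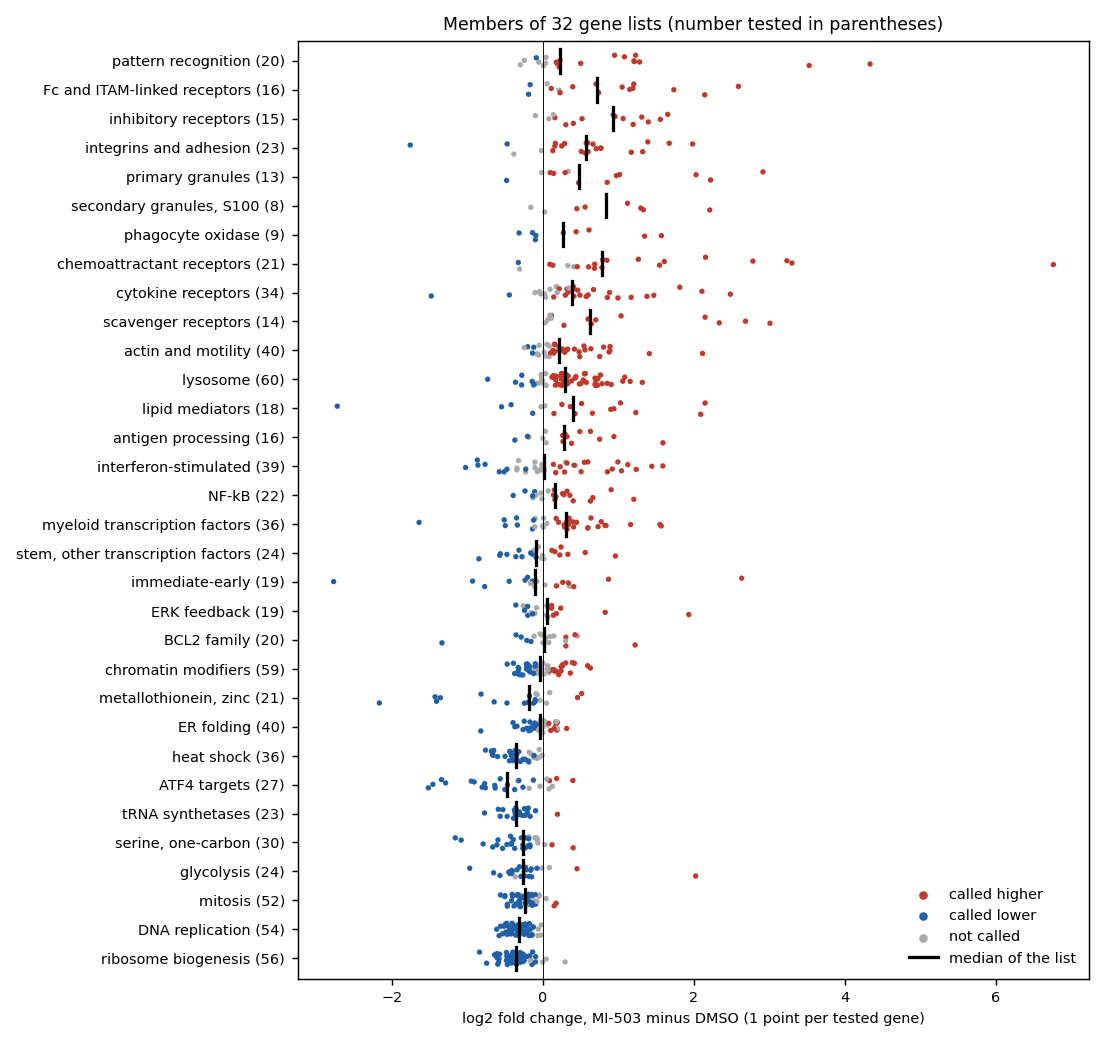
Log2 fold change (MI-503 minus DMSO) of every tested member of 32 gene lists, 1 point per gene, with the median of each list as a black bar and the number of tested members in parentheses. Lists of surface receptors and granule proteins have medians above 0, up to 0.93. The row of inhibitory receptors also holds activating ones. Lists of biosynthesis and division have medians below 0, down to -0.47 in the ATF4 targets. DNA replication and mitosis lie in a narrow band, whereas ATF4 targets run from -1.52 to 0.40 and glycolysis from -0.97 to 2.02. The point farthest to the right is CMKLR1, whose fitted value depends on the prior count because it had no count in DMSO.

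Receptors that sense microbial products were the first group examined. Toll-like receptors and their partners recognize bacterial and viral molecules and signal through adaptors such as MYD88. Of 29 genes listed, 20 were tested, 7 were below the filter and 2 had no count. Of the tested members, 13 were higher and 1 was lower, with a median log2 fold change of 0.22. TLR4, the receptor for lipopolysaccharide, was at 0.618, 0.628, 0.780 and 1.1496 CPM in DMSO and 7.46, 7.43, 10.2 and 11.2 CPM in MI-503. The lowest MI-503 library stood far above the highest DMSO library (log2 fold change 3.53, SE 0.19, edgeR adjusted p = 1.45e-12). TLR2, which binds bacterial lipopeptides, was at 11.1, 15.2, 10.4 and 10.4 CPM in DMSO and 28.3, 28.3, 27.6 and 25.9 CPM in MI-503 (log2 fold change 1.23, SE 0.086, edgeR adjusted p = 8.52e-11), and its DMSO replicate 2 stood above the other DMSO libraries. Its dimer partners TLR1 and TLR6 rose with log2 fold changes of 1.21 and 0.95, and the intracellular sensor NOD2 rose by 1.21. CD180 and LY86, which form a receptor complex with each other, rose by 1.28 and 1.08. The shared adaptor MYD88 was at 57.3 ± 2.75 CPM in DMSO and 55.2 ± 1.73 CPM in MI-503 and was not called (edgeR adjusted p = 0.265).

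The largest difference among these receptors was that of CLEC12A, an inhibitory C-type lectin of myeloid cells, which was at 0.163, 0.359, 0.229 and 0.184 CPM in DMSO and 4.38, 4.81, 4.56 and 5.01 CPM in MI-503 (log2 fold change 4.34, SE 0.21, edgeR adjusted p = 1.73e-13). CLEC12A was near the floor of detection in DMSO, so the size of its change is less certain than its direction.

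The proximal part of the TLR4 promoter is shown because this gene had the largest change among the Toll-like receptors. Purine-rich GAGGAA cores are letters that ETS family factors, PU.1 of myeloid cells among them, are known to bind. The sequence is the 250 bases before the start of TLR4 (RefSeq, GRCh38.p14, chr9:117704153-117704402, plus strand), with GAGGAA and its reverse complement TTCCTC in capitals.
TLR4: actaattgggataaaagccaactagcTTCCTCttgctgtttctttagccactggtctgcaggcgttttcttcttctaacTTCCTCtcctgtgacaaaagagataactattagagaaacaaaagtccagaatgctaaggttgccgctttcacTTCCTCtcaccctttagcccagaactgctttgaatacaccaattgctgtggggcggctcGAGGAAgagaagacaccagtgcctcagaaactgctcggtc
It holds 4 matches. The motif stood in 23.4% of 27305 promoter windows of this length. Receptor genes were taken from 6 lists (pattern recognition, Fc and ITAM-linked, SIGLEC and LILR, integrin and adhesion, chemoattractant and scavenger). Of 38 that were called at least 2-fold higher, 33 had a promoter entry, and 12 of these (36.4%) held the motif. The share was 38.0% (19 of 50) among the other tested members of the same lists and 23.1% among 10284 tested genes with an entry. The match describes letters only, and binding was not measured.

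Fc receptors bind the stem of antibodies, and together with TREM receptors they signal through adaptors that carry ITAM motifs and through SRC and SYK family kinases. In this list 16 of 18 genes were tested, 12 were higher and 2 lower, and the median was 0.72. The adaptor TYROBP was at 15.4, 18.4, 17.8 and 15.3 CPM in DMSO and 36.9, 34.5, 35.2 and 31.4 CPM in MI-503 (log2 fold change 1.05, SE 0.065, edgeR adjusted p = 1.23e-11). A second adaptor, HCST, went from 8.28 ± 0.688 to 18.3 ± 1.32 CPM and the neonatal Fc receptor FCGRT from 29.5 ± 3.09 to 67.6 ± 2.67 CPM, with no overlap between groups for either. FCGR2A, a low affinity receptor for IgG, rose by 0.74. Kinases of the pathway did not move as 1 block. FGR rose by 1.73 and SYK by 0.23, and LYN fell from 150.4 ± 4.66 to 132 ± 3.16 CPM (log2 fold change -0.19, SE 0.034, edgeR adjusted p = 5.09e-05). FCER1G, the common chain of several Fc receptors, was barely counted, at 0.503 ± 0.121 CPM in DMSO and 0.512 ± 0.138 CPM in MI-503, and was not called.

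Many receptors of the SIGLEC, LILR, CD300 and PILR groups dampen such signals. The list is not limited to inhibitory members, since activating ones such as LILRA1 and LILRA2 are counted in it. Only 15 of 26 members were tested, 12 of them higher and 0 lower, with a median of 0.93. Under other settings 9 to 16 members were higher and the median ran from 0.47 to 1.18. VSIR, a checkpoint ligand and receptor of myeloid cells, was at 37.5, 45.7, 38.8 and 39.7 CPM in DMSO and 77.7, 77.4, 80.2 and 77.3 CPM in MI-503 (log2 fold change 0.95, SE 0.048, edgeR adjusted p = 4.03e-13). CD300LF rose from 14.96 ± 1.38 to 28.4 ± 0.935 CPM and LILRB4 from 1.84 ± 0.151 to 5.79 ± 0.499 CPM. CD33, the sialic acid receptor used as an antibody target in this leukemia, rose little, from 34.5 ± 1.44 to 42.4 ± 1.88 CPM (log2 fold change 0.30, SE 0.047). LILR genes lie in several alternative copies of chromosome 19 in the annotation, and fragments that fit more than 1 copy had been left out, so that their levels may be incomplete.

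Adhesion molecules followed. Integrins pair an alpha with a beta chain, and the beta 2 integrins ITGAL, ITGAM and ITGAX with ITGB2 serve leukocyte adhesion and uptake of complement-coated particles. Of 23 tested members of 26, 19 were higher and 2 lower, with a median of 0.57. ITGAM (CD11b) was at 20.6, 24.3, 21.9 and 22.1 CPM in DMSO and 52.7, 53.6, 59.6 and 55.6 CPM in MI-503 (log2 fold change 1.32, SE 0.053, edgeR adjusted p = 9.16e-15). ITGAX (CD11c) rose from 4.68 ± 1.56 to 18.2 ± 1.46 CPM (log2 fold change 1.98, SE 0.13), and in DMSO its highest library was replicate 2. The chain they share, ITGB2, rose from 345 ± 8.40 to 522 ± 20.7 CPM, and ITGAL from 319.6 ± 33.5 to 506 ± 24.0 CPM. Every MI-503 library stood above every DMSO library for all 4 chains. PECAM1, an endothelial and leukocyte adhesion molecule, rose by 1.17, ICAM3 by 1.39 and the hyaluronan receptor CD44 by 0.76. Falls in the list were those of ITGB5 (log2 fold change -1.76, SE 0.25), which was at 1.39 ± 0.263 CPM in DMSO and 0.409 ± 0.0947 CPM in MI-503, and ICAM2 (log2 fold change -0.48, SE 0.11), of whose exon bases 42.8% lie in another gene as well.

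Chemoattractant receptors are G protein-coupled receptors that guide phagocytes along gradients of chemokines and lipids. Of 37 members 21 were tested, with 17 higher, 1 lower and a median of 0.78. PTAFR, the receptor for platelet-activating factor, was at 2.67, 4.98, 2.25 and 3.03 CPM in DMSO and 30.5, 31.1, 31.0 and 33.4 CPM in MI-503 (log2 fold change 3.30, SE 0.12, edgeR adjusted p = 1.27e-15). CCR2, the chemokine receptor by which monocytes leave the marrow, was at 7.03, 14.1, 7.94 and 7.45 CPM in DMSO and 65.3, 63.9, 58.8 and 60.1 CPM in MI-503 (log2 fold change 2.78, SE 0.12, edgeR adjusted p = 1.46e-14). For CCR2 the value of DMSO replicate 2 lay well above that of the other DMSO libraries, yet far under the MI-503 range. PTGER4, a prostaglandin E2 receptor, rose with little spread within either group, at 12.3, 12.1, 11.98 and 12.5 CPM in DMSO and 54.0, 54.7, 53.6 and 55.0 CPM in MI-503 (log2 fold change 2.15, SE 0.047, edgeR adjusted p = 4.39e-19). CX3CR1, the fractalkine receptor of patrolling monocytes, rose from 17.02 ± 0.825 to 49.7 ± 2.74 CPM and the sphingosine phosphate receptor S1PR3 from 9.98 ± 0.700 to 30.6 ± 0.715 CPM. CMKLR1, the chemerin receptor, had 0 fragments in the 4 DMSO libraries and 56 over the 4 MI-503 libraries, which makes it at least 17.2-fold higher against a floor of 3 counts over the DMSO group. The fall was that of GPR84, a fatty acid receptor (log2 fold change -0.33, SE 0.076). The formyl peptide receptor FPR1 was too scarce to be tested in either group.

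Among cytokine receptors 34 of 44 members were tested, with 23 higher, 2 lower and a median of 0.39. Receptors for colony stimulating factors control survival and maturation of the lineage. CSF3R, the receptor for G-CSF, was at 57.6, 77.9, 65.5 and 57.0 CPM in DMSO and 177, 179.7, 158 and 154 CPM in MI-503 (log2 fold change 1.38, SE 0.071, edgeR adjusted p = 5.05e-13). CSF1R, the receptor for M-CSF, was at 5.53, 7.76, 5.87 and 5.98 CPM in DMSO and 33.7, 34.2, 36.2 and 35.6 CPM in MI-503 (log2 fold change 2.48, SE 0.076, edgeR adjusted p = 1.26e-16), and CSF2RB, the shared chain of the GM-CSF receptor, rose from 11.02 ± 0.959 to 19.7 ± 1.77 CPM. The partner chains CSF2RA and IL3RA had no count. They lie on both X and Y in the annotation and fragments that fit several places had been left out, so nothing can be said of their level. IL7R rose from 1.97 ± 0.267 to 8.44 ± 0.641 CPM and IL10RA from 2.90 ± 0.199 to 10.2 ± 0.205 CPM, although 56.4% of the exon bases of IL10RA lie in another gene as well. FLT3, a receptor kinase on which MOLM-13 depends, fell from 314 ± 11.9 to 230.4 ± 1.503 CPM (log2 fold change -0.45, SE 0.033, edgeR adjusted p = 1.96e-10), and the oncostatin M receptor OSMR fell from 1.69 ± 0.445 to 0.594 ± 0.182 CPM.

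Scavenger receptors clear lipids, debris and apoptotic cells. Here 14 of 24 members were tested, 10 were higher and 0 lower, and the median was 0.62. SORL1, a sorting receptor of the LDL receptor family, was at 11.5, 13.9, 10.6 and 10.8 CPM in DMSO and 90.5, 92.3, 97.1 and 96.6 CPM in MI-503 (log2 fold change 3.01, SE 0.058, edgeR adjusted p = 1.73e-19). CD36, which takes up oxidized lipoproteins and fatty acids, was at 3.19, 5.02, 3.03 and 3.68 CPM in DMSO and 17.3, 16.9, 16.0 and 15.4 CPM in MI-503 (log2 fold change 2.15, SE 0.11, edgeR adjusted p = 3.61e-13). STAB1 and MARCO rose by 2.68 and 2.34, from levels under 1 CPM in DMSO, and CD68 rose from 61.6 ± 4.07 to 93.0 ± 3.44 CPM.

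Granule proteins form the next group. Primary granules are filled at the promyelocyte stage with proteases and bactericidal proteins, and later granules add lipocalin, lactoferrin and similar proteins. Of 16 primary granule genes 13 were tested, with 10 higher, 1 lower and a median of 0.47, and of 20 later granule and S100 genes only 8 were tested, with 6 higher, 0 lower and a median of 0.84. BPI, which kills bacteria by binding their lipopolysaccharide, was at 5.53, 7.98, 4.86 and 5.75 CPM in DMSO and 42.2, 43.4, 49.1 and 46.7 CPM in MI-503 (log2 fold change 2.92, SE 0.089, edgeR adjusted p = 1.26e-16). LYZ, lysozyme, was at 91.0, 104, 85.1 and 89.5 CPM in DMSO and 375, 382, 369 and 379 CPM in MI-503 (log2 fold change 2.03, SE 0.044, edgeR adjusted p = 4.39e-19). CHI3L1, a chitinase-like protein of specific granules and macrophages, was at 117, 139, 121 and 113 CPM in DMSO and 567, 564, 567 and 569 CPM in MI-503 (log2 fold change 2.21, SE 0.047, edgeR adjusted p = 4.39e-19). MPO, the peroxidase that marks the myeloid lineage, rose from 111 ± 16.97 to 217 ± 9.60 CPM, with DMSO replicate 2 above its group. Proteases stored in the same granules did not move alike. PRTN3 rose by 1.01, from 1.16 ± 0.147 to 2.35 ± 0.208 CPM, ELANE by 0.47 and CTSG by 0.29. For CTSG the groups overlapped, with DMSO replicate 2 at 577 CPM above MI-503 replicate 1 at 564 CPM. AZU1 was at 1.32 ± 0.322 CPM in DMSO and 1.66 ± 0.428 CPM in MI-503 and was not called (edgeR adjusted p = 0.183). ELANE, PRTN3, AZU1 and CFD lie in a region with an alternative copy in the annotation, so their counts may be incomplete. The calcium binding proteins S100A4 and S100A6 rose by 1.30 and 1.12. The neutrophil proteins S100A8 and S100A9 were scarce, at 1.43 ± 0.576 CPM in DMSO and 3.56 ± 0.216 CPM in MI-503 and at 2.92 ± 0.621 CPM in DMSO and 4.25 ± 0.827 CPM in MI-503. LCN2 and CEACAM8, of late neutrophil granules, had no count and were not detectable at this depth.

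MS4A genes encode proteins that span the membrane several times, several of them specific to myeloid cells. All 7 members tested (of 16) were higher, with a median of 1.8, and 4 were at least 2-fold higher. MS4A6A was at 6.93, 12.7, 8.22 and 6.39 CPM in DMSO and 42.4, 40.6, 32.3 and 31.3 CPM in MI-503 (log2 fold change 2.11, SE 0.14, edgeR adjusted p = 2.01e-11). MS4A3, a marker of granulocyte-monocyte progenitors, rose from 3.42 ± 0.605 to 15.9 ± 0.705 CPM, and MS4A7, a monocyte and macrophage gene, rose less but without overlap, from 70.4 ± 0.412 to 98.9 ± 5.94 CPM. Adhesion G protein-coupled receptors were higher in 9 of 13 tested members and lower in 3, with ADGRA2 from 190.2 ± 15.9 to 512 ± 12.2 CPM (log2 fold change 1.43, SE 0.044) and ADGRL3 in the other direction, from 28.6 ± 3.10 to 14.97 ± 0.863 CPM. Of the tumor necrosis factor ligands 4 of 6 tested were higher, with TNFSF14 from 7.56 ± 0.454 to 20.6 ± 2.14 CPM and TNFSF13B, a survival factor for B cells made by myeloid cells, from 40.8 ± 4.58 to 82.0 ± 2.45 CPM. Semaphorins and plexins were split, 8 higher and 3 lower of 20 tested. SEMA4A rose from 3.10 ± 1.05 to 18.1 ± 1.04 CPM and the receptor PLXND1 from 309.9 ± 10.4 to 488 ± 12.7 CPM, and PLXNA1 fell from 74.3 ± 3.77 to 61.1 ± 1.84 CPM.

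The phagocyte oxidase makes superoxide from a membrane pair, CYBB with CYBA, with the help of cytosolic subunits, NCF1, NCF4 and RAC2 among them. All 9 genes of the list were tested, 5 were higher and 4 lower, so the complex did not change in 1 direction. CYBB rose but stayed under 1 CPM in every library, at 0.260, 0.359, 0.138 and 0.184 CPM in DMSO and 0.606, 0.786, 0.739 and 0.699 CPM in MI-503 (log2 fold change 1.57, SE 0.31, edgeR adjusted p = 1.90e-04). Its partner CYBA was at 563 ± 25.2 CPM in DMSO and 525 ± 19.7 CPM in MI-503, with a small difference and overlapping groups (log2 fold change -0.10, SE 0.037, edgeR adjusted p = 0.0237) whose call was lost in 4 of the 8 fits that left out 1 library, and NCF1 fell from 21.9 ± 2.77 to 17.6 ± 0.863 CPM. NCF1 has near-identical pseudogenes, so its count is uncertain.

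**Figure D2:**
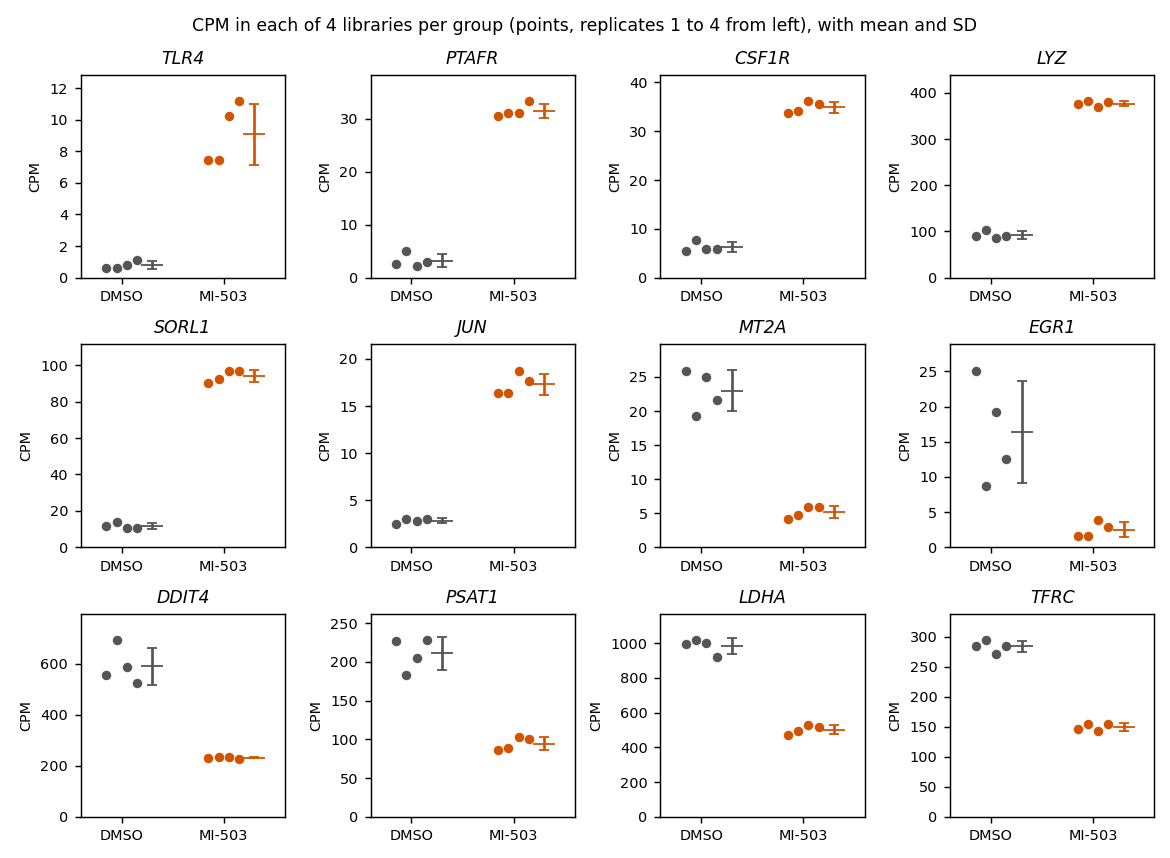
CPM of 12 genes in each library, points for replicates 1 to 4 from left to right, with the group mean and SD beside them and axes that start at 0. The groups do not overlap for any of the 12 genes, and the spread within a group, relative to its mean, is widest for EGR1, which ran from 8.66 to 25.1 CPM in DMSO.

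Lysosomes hold the acid hydrolases that digest engulfed material. Of 63 genes of the organelle 60 were tested, with 45 higher, 6 lower (3 without DMSO replicate 1) and a median of 0.29, and their summed share of counted fragments went from 0.453% to 0.462% in DMSO to 0.595% to 0.607% in MI-503. GRN, a growth factor processed in lysosomes, was at 219.9, 227, 232 and 206 CPM in DMSO and 483, 494, 502 and 490.2 CPM in MI-503 (log2 fold change 1.155, SE 0.036, edgeR adjusted p = 1.77e-16). GM2A, the activator protein for ganglioside breakdown, was at 29.0, 29.6, 33.2 and 28.1 CPM in DMSO and 75.8, 74.0, 74.1 and 74.5 CPM in MI-503 (log2 fold change 1.32, SE 0.046, edgeR adjusted p = 8.41e-16). ASAH1, acid ceramidase, rose from 51.6 ± 3.35 to 107 ± 2.93 CPM, and the cholesterol carrier NPC2 from 11.9 ± 0.779 to 22.3 ± 0.795 CPM. The proteases CTSD and CTSB rose by 0.72 and 0.26. Subunits of the vacuolar ATPase, the proton pump of the organelle, were split, 8 higher and 5 lower of 20 tested, with 3 lower once DMSO replicate 1 was left out. TFE3, a transcription factor of lysosomal genes, rose from 27.2 ± 0.360 to 39.3 ± 1.45 CPM, while its relative TFEB was at 42.3 ± 3.16 CPM in DMSO and 42.6 ± 1.22 CPM in MI-503 and was not called (edgeR adjusted p = 0.834).

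Of 18 tested genes of lipid handling 12 were higher and 4 lower. ABCA1, which exports cholesterol to lipoproteins, was at 7.75, 6.28, 7.85 and 9.20 CPM in DMSO and 31.3, 30.0, 34.8 and 36.3 CPM in MI-503 (log2 fold change 2.09, SE 0.085, edgeR adjusted p = 1.02e-14). Of the genes of eicosanoid synthesis, PTGS1 rose from 5.86 ± 0.603 to 11.9 ± 0.887 CPM and LTA4H from 57.4 ± 3.17 to 77.0 ± 3.42 CPM. ALOX5AP rose from 10.97 ± 0.557 to 15.7 ± 1.10 CPM, while ALOX5 itself had no count and lies on 2 contigs. The largest change in the lipid list was the fall of ALDH1A3, an enzyme that makes retinoic acid, at 27.1, 41.8, 28.1 and 26.9 CPM in DMSO and 4.24, 5.68, 3.94 and 4.44 CPM in MI-503 (log2 fold change -2.73, SE 0.14, edgeR adjusted p = 3.44e-13). Another gene shares 49.4% of the exon bases of ALDH1A3. PLIN2, the coat protein of lipid droplets, fell from 16.4 ± 0.531 to 11.2 ± 0.523 CPM.

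Actin regulators carry leukocyte motility. In this list 27 of 40 tested members were higher and 3 were lower, with a median of 0.21. FLNA, an actin cross-linker, was at 1309.9, 1364, 1338 and 1306 CPM in DMSO and 2122, 2175, 2362 and 2290.1 CPM in MI-503 (log2 fold change 0.75, SE 0.038, edgeR adjusted p = 4.13e-13). CORO1A, a coronin of white cells, rose from 311 ± 24.0 to 569 ± 15.9 CPM, and ANXA1, an anti-inflammatory annexin, from 11.7 ± 0.714 to 31.3 ± 2.38 CPM. LSP1 rose by 2.11 from about 1 CPM. Actin itself fell slightly, ACTB from 4609 ± 137 to 4235 ± 125 CPM (log2 fold change -0.12, SE 0.038), and VIM, a filament protein, was at 308 ± 17.01 CPM in DMSO and 311 ± 8.33 CPM in MI-503 and was not called. Among RAB GTPases of vesicle traffic 26 of 58 were higher and 12 lower, and RAB37, found on secretory granules, rose from 9.50 ± 0.999 to 42.1 ± 1.57 CPM (log2 fold change 2.16, SE 0.064).

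Immune signaling genes were mixed. Antigen processing genes outside the histocompatibility region were higher in 10 and lower in 2 of 16 tested. CIITA, the master switch of class II genes, was at 4.49, 7.40, 5.14 and 3.68 CPM in DMSO and 18.1, 16.5, 13.6 and 13.6 CPM in MI-503 (log2 fold change 1.59, SE 0.14, edgeR adjusted p = 2.19e-09), and the invariant chain CD74 rose from 103 ± 12.03 to 159 ± 9.09 CPM. RFXAP, a subunit of the factor that binds class II promoters, fell by 0.21 on the log2 scale, and the abundant chaperone CALR fell from 1944 ± 40.2 to 1501 ± 73.3 CPM. The summed share of counted fragments of the list was lower in MI-503, at 0.225% to 0.239% against 0.261% to 0.265% in DMSO, opposite to the count of its members. Interferon-stimulated genes had a median of 0.017, near that of all genes, and the sign of this median changed under some other settings. Within the list 17 of 39 tested members were higher and 8 lower. GBP2 rose from 3.58 ± 0.665 to 9.67 ± 0.800 CPM, MX2 from 2.56 ± 0.469 to 5.95 ± 0.618 CPM and STAT2 from 44.2 ± 3.02 to 66.4 ± 5.95 CPM, while OAS1 fell from 3.90 ± 0.616 to 1.91 ± 0.161 CPM and IFI16 from 21.8 ± 1.68 to 11.9 ± 0.404 CPM. ISG15 was at 7.68 ± 0.127 CPM in DMSO and 7.11 ± 0.328 CPM in MI-503 and was not called (edgeR adjusted p = 0.281). Of 22 tested NF-kB genes 13 were higher and 4 lower. BCL3 rose from 4.72 ± 0.262 to 10.8 ± 0.522 CPM and the subunit NFKB1 fell from 89.7 ± 3.35 to 68.1 ± 1.597 CPM. TNF had no count and lies on 8 contigs.

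**Figure D3:**
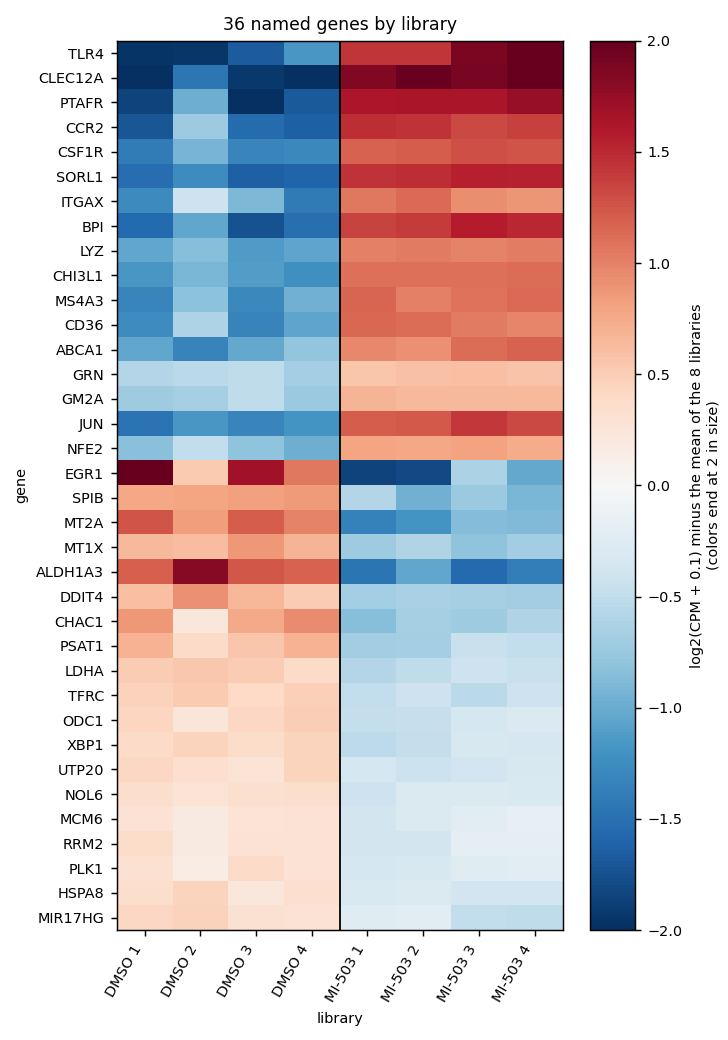
Heat map of 36 named genes (rows) in the 8 libraries (columns), colored by log2(CPM + 0.1) minus the mean of the gene, with colors ending at 2 in size. Receptor, granule and lysosome genes are below their mean in all DMSO libraries and above it in all MI-503 libraries, and in DMSO replicate 2 many of them, CCR2, ITGAX and CD36 included, lie closer to the mean than in the other DMSO libraries.

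Transcription factors of the myeloid lineage were higher in 23 and lower in 7 of 36 tested (4 lower without DMSO replicate 1), with a median of 0.31. PU.1, encoded by SPI1, and the C/EBP proteins direct this lineage together. SPI1 was at 218, 219.7, 220.2 and 210.0 CPM in DMSO and 264, 261, 272 and 257 CPM in MI-503 (log2 fold change 0.28, SE 0.032, edgeR adjusted p = 1.64e-07). CEBPA, CEBPB and CEBPD rose by 0.30, 0.40 and 0.59. CEBPE, needed for late granules, rose from 0.477 ± 0.170 to 1.44 ± 0.223 CPM but remained scarce. NFE2 was at 36.2, 45.8, 37.0 and 32.8 CPM in DMSO and 112, 111, 113 and 108 CPM in MI-503 (log2 fold change 1.55, SE 0.061, edgeR adjusted p = 6.28e-15) and the repressor BCL6 rose from 5.08 ± 0.400 to 11.4 ± 0.720 CPM. IRF8, a factor of monocytes and dendritic cells, was at 529 ± 51.9 CPM in DMSO and 526 ± 16.9 CPM in MI-503 and was not called (edgeR adjusted p = 0.904). SPIB, a close relative of PU.1 known from B cells and plasmacytoid dendritic cells, ran against its relative, at 10.4, 10.5, 10.7 and 11.04 CPM in DMSO and 4.01, 3.06, 3.57 and 3.16 CPM in MI-503 (log2 fold change -1.64, SE 0.097, edgeR adjusted p = 5.15e-12).

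Factors of stem cells and other lineages were lower in 10 and higher in 7 of 24 tested. GATA2 fell from 11.8 ± 1.03 to 7.94 ± 0.679 CPM, MYC from 637 ± 7.39 to 496 ± 21.9 CPM and the B cell factor PAX5 from 45.2 ± 1.20 to 30.6 ± 0.517 CPM. MYB rose slightly (log2 fold change 0.12, SE 0.032), and RUNX1 was at 226 ± 6.59 CPM in DMSO and 224 ± 9.04 CPM in MI-503 and was not called (edgeR adjusted p = 0.73). LYL1 rose from 85.7 ± 1.13 to 126 ± 3.03 CPM (log2 fold change 0.56, SE 0.033), although 35.8% of its exon bases lie in another gene as well.

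Immediate-early genes answer growth factor signals within minutes, and their members went apart. JUN, a subunit of AP-1, was at 2.44, 3.05, 2.75 and 2.99 CPM in DMSO and 16.4, 16.4, 18.8 and 17.6 CPM in MI-503 (log2 fold change 2.63, SE 0.093, edgeR adjusted p = 1.17e-15). EGR1, a zinc finger factor induced through ERK, was at 25.1, 8.66, 19.3 and 12.5 CPM in DMSO and 1.58, 1.63, 3.82 and 2.88 CPM in MI-503 (log2 fold change -2.78, SE 0.28, edgeR adjusted p = 1.98e-08). The DMSO libraries spread over nearly 3-fold for EGR1, with replicate 2 lowest, yet none reached down to the MI-503 range. JUNB fell from 135 ± 8.86 to 115 ± 9.69 CPM and JUND from 406 ± 15.8 to 367 ± 18.3 CPM, and FOS was at 7.92 ± 2.39 CPM in DMSO and 10.2 ± 2.24 CPM in MI-503 with overlapping groups (edgeR adjusted p = 0.0618). FOS was called higher, with a log2 fold change of 0.51, once DMSO replicate 3 was left out, and likewise without the first or the second MI-503 library (0.41 and 0.42). It was also called higher without a filter (0.34, adjusted p = 0.000536 by edgeR) and with a replicate block (0.37, adjusted p = 0.00211). Across the list 6 members were higher and 8 lower of 19 tested. Feedback inhibitors of ERK gave no common direction either, with 7 higher and 5 lower of 19 tested. Without DMSO replicate 4 only 4 of them were called higher. DUSP4, a nuclear MAP kinase phosphatase, rose from 1.57 ± 0.433 to 6.002 ± 0.579 CPM (log2 fold change 1.93, SE 0.15), whereas DUSP6, SPRY2 and SPRY4, which are usual readouts of ERK activity, were at 50.8 ± 4.84 CPM in DMSO and 52.8 ± 5.25 CPM in MI-503, at 38.8 ± 4.42 CPM in DMSO and 36.2 ± 2.10 CPM in MI-503 and at 9.02 ± 0.175 CPM in DMSO and 8.12 ± 0.546 CPM in MI-503, with no call for any of them. Without DMSO replicate 2 SPRY2 was called lower (log2 fold change -0.18, adjusted p = 0.00381 by edgeR).

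Genes that build the ribosome were lower as a group. RNA polymerase I and many nucleolar factors make and process the precursor of ribosomal RNA and fold it with ribosomal proteins. Of 58 such genes 56 were tested, 0 were higher and 52 were lower, with a median of -0.36. UTP20, a scaffold of the small subunit processome, was at 165, 156, 149 and 168 CPM in DMSO and 96.3, 91.8, 94.2 and 98.2 CPM in MI-503 (log2 fold change -0.75, SE 0.039, edgeR adjusted p = 7.29e-13). NOL6, another processome component, went from 219 ± 5.87 to 140.4 ± 6.20 CPM and the helicase DDX21 from 899.6 ± 52.0 to 589 ± 21.2 CPM. POLR3G, a subunit of RNA polymerase III tied to immature cells, fell from 28.7 ± 1.88 to 16.0 ± 0.496 CPM (log2 fold change -0.84, SE 0.058). The abundant nucleolar proteins NCL and NPM1 fell from 1965 ± 68.1 to 1544 ± 56.2 CPM and from 1843 ± 42.0 to 1510.0 ± 38.2 CPM. FBL could not be judged, as only 2.28 to 7.76 CPM were counted in the 8 libraries and its gene has a copy on a second contig. Among DEAD and DEAH box helicases, many of which act in ribosome assembly, 41 of 51 tested were lower and 2 were higher.

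The proteins of the finished cytosolic ribosome moved the other way. Of 79 tested genes 63 were higher and 7 lower, with a median of 0.17, and no member changed by as much as 2-fold. Their summed share of counted fragments was 10.3%, 11.1%, 10.5% and 10.4% in DMSO and 12.5%, 12.2%, 11.7% and 11.3% in MI-503. RPL31 was at 856, 966, 855 and 867 CPM in DMSO and 1210.3, 1148, 1102 and 1047 CPM in MI-503 (log2 fold change 0.35, SE 0.045, edgeR adjusted p = 9.47e-07), with DMSO replicate 2 highest in its group and below every MI-503 library. Another gene shares 35.8% of the exon bases of RPL31. The exceptions included RPS26, which fell from 216 ± 10.2 to 166 ± 2.73 CPM (log2 fold change -0.39, SE 0.036, edgeR adjusted p = 5.86e-09), and RPL7L1, an assembly factor rather than a ribosomal protein, which fell from 423 ± 18.5 to 352 ± 9.07 CPM. With all 11 libraries in the fit 38 members were called higher, and the median was 0.12. Mitochondrial ribosomal proteins, by contrast, were lower in 66 and higher in 1 of 76 tested, with a median of -0.30. MRPS27 was at 183, 172, 178 and 178 CPM in DMSO and 123, 126, 123 and 125 CPM in MI-503 (log2 fold change -0.52, SE 0.032, edgeR adjusted p = 1.04e-11), and MRPS2 fell from 62.9 ± 0.0776 to 41.3 ± 1.23 CPM.

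**Figure D4:**
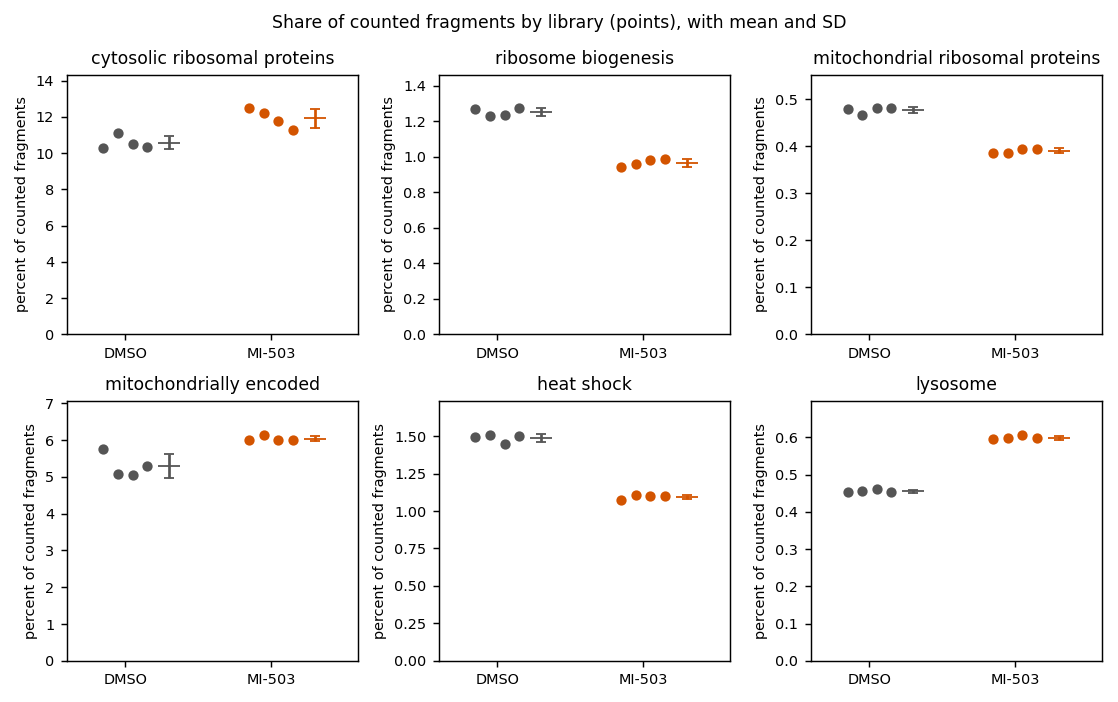
Share of all counted fragments taken by 6 gene groups in each library (points) with the group mean and SD, on axes that start at 0. Cytosolic ribosomal proteins, mitochondrially encoded genes and lysosomal genes take a larger share in MI-503, while ribosome biogenesis, mitochondrial ribosomal and heat shock genes take a smaller one, with no overlap between groups in any panel.

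Genes of the respiratory chain that lie in the nucleus were mostly lower. Those for complex I were lower in 32 and higher in 2 of 46 tested, those for complexes III and IV in 14 and 1 of 20, and those for ATP synthase in 14 and 0 of 17. NDUFV2, a complex I subunit, was at 84.9, 82.6, 84.4 and 84.0 CPM in DMSO and 56.9, 56.4, 59.4 and 58.9 CPM in MI-503 (log2 fold change -0.54, SE 0.035, edgeR adjusted p = 3.19e-11), and ATP5F1A, the alpha subunit of the synthase, went from 752 ± 20.4 to 611 ± 12.1 CPM. Of the 13 protein-coding genes of the mitochondrial genome, a group added after values had been seen, 7 were higher and 1 was lower. Their share of counted fragments ran from 5.06% to 5.76% in DMSO and from 6.01% to 6.15% in MI-503. Mitochondrial COX1 was at 13912 ± 751 CPM in DMSO and 17162 ± 512 CPM in MI-503 and COX2 at 3574 ± 205 CPM in DMSO and 4707 ± 108 CPM in MI-503, both higher, while ND1 was lower, at 5374 ± 441 CPM in DMSO and 4805 ± 111 CPM in MI-503.

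**Figure D5:**
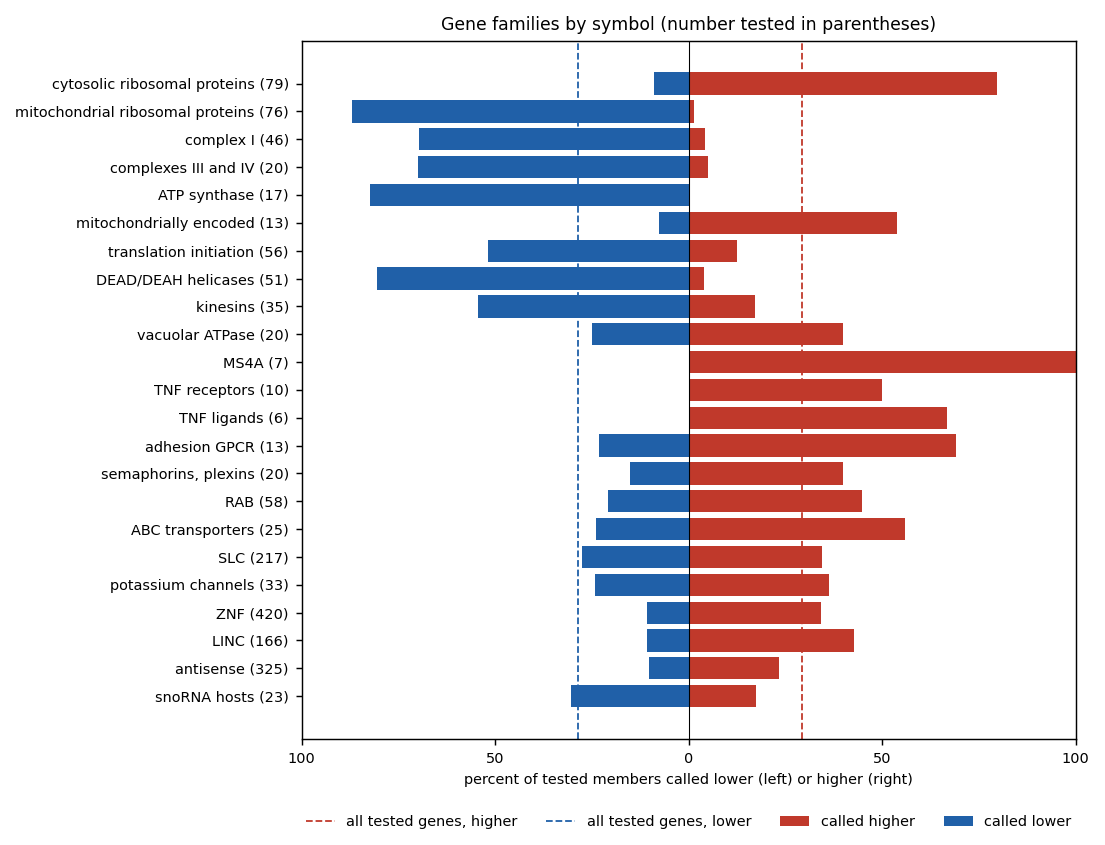
Percent of the tested members of 23 gene families, grouped by symbol, that were called higher (right) or lower (left), with the percentages for all tested genes (29.3% higher, 28.6% lower) as broken lines. Cytosolic and mitochondrial ribosomal proteins extend in opposite directions, with 63 of 79 higher and 66 of 76 lower.

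Translation factors were more often lower than higher. Of 56 tested initiation factor genes 29 were lower and 7 higher, the latter 2 with all 11 libraries in the fit and 3 without MI-503 replicate 2. EIF4E3, a cap-binding protein, fell from 38.0 ± 1.254 to 16.5 ± 1.01 CPM (log2 fold change -1.21, SE 0.054, edgeR adjusted p = 5.19e-14), and EIF4EBP1, which sequesters EIF4E, fell from 219.8 ± 9.49 to 136 ± 6.505 CPM. EIF4A2 rose from 254 ± 16.3 to 306 ± 24.5 CPM. Cytosolic aminoacyl-tRNA synthetases, which load amino acids onto tRNA, were lower, with their scaffold proteins, in 22 of 23 genes. GARS1, for glycine, was at 235, 198, 220.0 and 235 CPM in DMSO and 119, 124, 137 and 139 CPM in MI-503 (log2 fold change -0.78, SE 0.052, edgeR adjusted p = 3.89e-11). QARS1, for glutamine, was the exception, from 349 ± 4.76 to 398 ± 5.84 CPM (log2 fold change 0.19, SE 0.030).

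ATF4 induces many of these synthetases together with genes for amino acid synthesis and transport. Of 27 tested ATF4 target genes 18 were lower and 3 higher, with a median of -0.47, the lowest of all lists. ATF4 itself fell from 535 ± 31.7 to 386 ± 20.04 CPM (log2 fold change -0.47, SE 0.043), with 47.2% of its exon bases shared with another gene. DDIT4, an inhibitor of mTORC1 that also answers hypoxia, was at 558, 693, 588 and 524 CPM in DMSO and 230.3, 236, 234 and 228 CPM in MI-503 (log2 fold change -1.35, SE 0.057, edgeR adjusted p = 2.14e-14). CHAC1, which degrades glutathione, was at 8.01, 5.11, 7.43 and 8.51 CPM in DMSO and 2.38, 2.71, 2.63 and 2.84 CPM in MI-503 (log2 fold change -1.46, SE 0.14, edgeR adjusted p = 1.22e-08). The transporter subunits SLC7A5 and SLC3A2, which together import large neutral amino acids, fell from 538 ± 30.9 to 317 ± 33.5 CPM and from 222 ± 20.2 to 142 ± 11.4 CPM. DDIT3, the stress factor CHOP, and the cystine transporter SLC7A11 were at 12.4 ± 0.644 CPM in DMSO and 12.1 ± 1.05 CPM in MI-503 and at 25.5 ± 4.93 CPM in DMSO and 28.0 ± 2.99 CPM in MI-503, with no call for either, although SLC7A11 was called higher with a replicate block (0.15, adjusted p = 0.0324 by edgeR). In DMSO replicate 2 CHAC1, SLC3A2 and SLC7A11 were lower than in the other DMSO libraries.

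Serine synthesis draws carbon from glycolysis through PHGDH, PSAT1 and PSPH, and the folate cycle passes it on. Of 30 tested genes of serine, folate and polyamine metabolism 22 were lower and 2 higher. PSAT1 was at 227, 183, 205 and 228 CPM in DMSO and 86.3, 88.1, 103 and 99.99 CPM in MI-503 (log2 fold change -1.16, SE 0.061, edgeR adjusted p = 7.88e-13). PHGDH fell from 317 ± 17.8 to 209.6 ± 13.4 CPM, and ODC1, the first enzyme of polyamine synthesis, from 223 ± 15.6 to 129 ± 8.38 CPM. CBS, which joins serine with homocysteine, fell from 5.43 ± 0.746 to 2.57 ± 0.470 CPM. Glycolysis was lower in 19 and higher in 2 of 24 tested genes. LDHA, which turns pyruvate into lactate, was at 995, 1018, 1003 and 918 CPM in DMSO and 469.8, 492, 527 and 517 CPM in MI-503 (log2 fold change -0.97, SE 0.041, edgeR adjusted p = 1.60e-14). The glucose transporter SLC2A1 fell from 48.4 ± 4.19 to 39.0 ± 2.64 CPM. Hexokinase showed a switch of direction between members, since HK3, an isoform of myeloid cells, rose from 1.34 ± 0.197 to 5.39 ± 0.422 CPM (log2 fold change 2.02, SE 0.14, edgeR adjusted p = 6.76e-11) while HK2 fell by 0.15 on the log2 scale. BNIP3, a mitochondrial mitophagy receptor that is induced by hypoxia, fell from 43.5 ± 7.80 to 17.05 ± 1.83 CPM (log2 fold change -1.34, SE 0.095). TFRC, listed with the erythroid markers and the receptor through which dividing cells take up iron, was at 285, 294, 271 and 285 CPM in DMSO and 147, 154, 142 and 155 CPM in MI-503 (log2 fold change -0.92, SE 0.036, edgeR adjusted p = 5.92e-15).

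DNA synthesis and division genes changed widely but little. All 54 genes of origin licensing, the fork and deoxynucleotide supply were tested, 50 were lower and 0 higher, with a median of -0.31 and no member at 2-fold. CDC6, which loads the replicative helicase, was at 87.4, 79.6, 79.4 and 81.4 CPM in DMSO and 49.3, 52.1, 55.7 and 57.3 CPM in MI-503 (log2 fold change -0.61, SE 0.046, edgeR adjusted p = 2.41e-10). MCM6, a helicase subunit, fell from 253 ± 8.51 to 177 ± 10.7 CPM and RRM2, of ribonucleotide reductase, from 187 ± 9.47 to 127 ± 9.04 CPM. Of 52 mitotic genes 43 were lower and 2 higher, with a median of -0.24. PLK1 was at 219, 194, 229 and 216 CPM in DMSO and 138, 142, 148 and 152 CPM in MI-503 (log2 fold change -0.56, SE 0.043, edgeR adjusted p = 3.18e-10) and CCNB1 fell from 158 ± 11.5 to 114 ± 1.996 CPM. TOP2A, an abundant topoisomerase, was at 571 ± 25.9 CPM in DMSO and 547 ± 7.95 CPM in MI-503 and was not called (edgeR adjusted p = 0.136), but was called lower without DMSO replicate 2 (log2 fold change -0.09, adjusted p = 0.0264 by edgeR), and CENPF rose slightly, from 407 ± 33.7 to 451 ± 10.1 CPM.

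Chaperones of the cytosol and mitochondria were lower in 29 and higher in 0 of 36 tested genes, with a median of -0.36. HSPA8, the constitutive HSP70, was at 1725, 1843, 1572 and 1704 CPM in DMSO and 1086, 1109, 1029 and 1034 CPM in MI-503 (log2 fold change -0.68, SE 0.043, edgeR adjusted p = 1.37e-11). HSP90AA1 fell from 1474 ± 53.9 to 929 ± 34.4 CPM and the mitochondrial chaperonin HSPD1 from 819 ± 30.7 to 518 ± 16.0 CPM. The inducible HSPA1A and HSPA1B were at 3.42 ± 0.699 CPM in DMSO and 3.05 ± 0.502 CPM in MI-503 and at 2.21 ± 0.451 CPM in DMSO and 2.11 ± 0.454 CPM in MI-503, with no call for either, and both lie on 5 contigs. Folding factors of the endoplasmic reticulum had a median near 0 (-0.038), with 17 lower and 8 higher of 40 tested. The 8 became 3 with all 11 libraries in the fit, 4 without DMSO replicate 3 or 4 or MI-503 replicate 2, and 5 without MI-503 replicate 3. XBP1, a factor of secretory capacity, fell from 449 ± 14.5 to 253 ± 17.5 CPM (log2 fold change -0.82, SE 0.042) and CALR from 1944 ± 40.2 to 1501 ± 73.3 CPM, while HSP90B1 rose from 612 ± 35.2 to 688 ± 25.1 CPM.

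Metallothioneins bind zinc and copper and are induced by metal through MTF1. In the list of metallothionein and zinc transport genes 14 were lower and 2 higher of 21 tested, and the 5 tested metallothioneins all fell. MT2A was at 25.9, 19.3, 25.1 and 21.7 CPM in DMSO and 4.20, 4.66, 5.87 and 5.84 CPM in MI-503 (log2 fold change -2.17, SE 0.10, edgeR adjusted p = 1.94e-13). MT1X was at 16.2, 16.0, 18.91 and 16.6 CPM in DMSO and 6.25, 6.79, 5.87 and 6.37 CPM in MI-503 (log2 fold change -1.41, SE 0.080, edgeR adjusted p = 2.53e-12). MT1E, MT1G and MT1F fell by 1.43, 1.36 and 0.82 on the log2 scale. SLC30A1, a zinc exporter that MTF1 also induces, was at 55.2 ± 2.46 CPM in DMSO and 52.3 ± 2.05 CPM in MI-503 and was not called (edgeR adjusted p = 0.133), but was called lower without DMSO replicate 3 (log2 fold change -0.11, adjusted p = 0.0356 by edgeR), and MTF1 was at 29.8 ± 1.09 CPM in DMSO and 31.7 ± 1.33 CPM in MI-503 and was not called (edgeR adjusted p = 0.123).

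The promoters of MT2A and MT1X are shown because metallothioneins fell together. Capitals mark TGCACNC and TGCGCNC, the core letters of metal response elements, on either strand (N stands for any base), in the 250 bases before each start (RefSeq, GRCh38.p14, plus strand, chr16:56608334-56608583 for MT2A and chr16:56682220-56682469 for MT1X). MT1E, MT1F and MT1G had no entry.
MT2A: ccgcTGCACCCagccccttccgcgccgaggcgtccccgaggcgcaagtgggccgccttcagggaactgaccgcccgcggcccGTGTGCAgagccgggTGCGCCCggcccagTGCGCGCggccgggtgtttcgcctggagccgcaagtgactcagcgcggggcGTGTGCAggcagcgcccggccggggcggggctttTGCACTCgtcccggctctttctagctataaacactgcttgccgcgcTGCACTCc
MT1X: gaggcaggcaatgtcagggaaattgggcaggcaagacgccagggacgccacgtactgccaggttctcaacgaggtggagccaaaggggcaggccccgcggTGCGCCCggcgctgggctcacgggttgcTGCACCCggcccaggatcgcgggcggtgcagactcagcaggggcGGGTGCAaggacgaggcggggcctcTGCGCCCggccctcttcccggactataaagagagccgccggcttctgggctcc
MT2A holds 7 matches and MT1X 4. At least 1 match stood in 24.7% of 27305 promoter windows and in 33.0% of 10284 windows of tested genes, so the presence of the core does not set these genes apart by itself. How often a window holds as many matches as these was not counted.

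Cell death regulators were close to the background, 4 higher and 5 lower of 20 tested. BMF, a BH3-only protein, rose from 16.3 ± 1.65 to 37.7 ± 1.32 CPM (log2 fold change 1.22, SE 0.061, edgeR adjusted p = 3.84e-13), and MCL1, a survival factor, fell from 285 ± 8.28 to 233 ± 3.42 CPM. BCL2 was at 138 ± 3.14 CPM in DMSO and 134 ± 4.58 CPM in MI-503 and was not called (edgeR adjusted p = 0.34). Chromatin modifiers were lower in 23 and higher in 16 of 59 tested. EZH2, the methyl transferase of polycomb complex 2, was at 97.3, 91.9, 98.1 and 91.0 CPM in DMSO and 67.1, 67.0, 68.4 and 70.1 CPM in MI-503 (log2 fold change -0.47, SE 0.037, edgeR adjusted p = 4.75e-10), and DNMT1 fell from 729 ± 21.5 to 605 ± 36.3 CPM. DNMT3A rose from 24.9 ± 0.587 to 31.97 ± 1.64 CPM and IDH1 from 107 ± 3.38 to 165 ± 3.17 CPM. The transcript counted as KMT2A was at 92.5 ± 5.97 CPM in DMSO and 93.2 ± 5.80 CPM in MI-503 and was not called.

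MIR17HG is the host transcript of the miR-17-92 cluster, microRNAs known to favor proliferation, and was among 6 of 15 tested microRNA hosts that fell. It was at 45.6, 47.6, 42.4 and 42.1 CPM in DMSO and 29.0, 29.2, 24.5 and 24.3 CPM in MI-503 (log2 fold change -0.73, SE 0.061, edgeR adjusted p = 1.26e-09), a fall without overlap. The mature microRNAs were not measured, and 12 of them lie inside the host by coordinates. The 6 major arms are printed 5′ to 3′ (RefSeq, GRCh38.p14, plus strand) because they show what the host encodes, with bases 2 to 8, the seed that pairs with target RNA, in capitals.
miR-17-5p, chr13:91350618-91350640: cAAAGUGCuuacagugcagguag
miR-20a-5p, chr13:91351072-91351094: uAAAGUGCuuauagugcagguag
miR-18a-5p, chr13:91350756-91350778: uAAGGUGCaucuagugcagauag
miR-19a-3p, chr13:91350939-91350961: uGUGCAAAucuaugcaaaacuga
miR-19b-3p, chr13:91351245-91351267: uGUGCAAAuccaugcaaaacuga
miR-92a-3p, chr13:91351361-91351382: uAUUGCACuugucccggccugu
They carry 4 different seeds: miR-17-5p shares its seed with miR-20a-5p, and miR-19a-3p with miR-19b-3p. Other hosts went both ways, with MIR1915HG from 56.0 ± 3.06 to 22.8 ± 0.733 CPM and MIR646HG from 1.98 ± 0.352 to 6.24 ± 0.556 CPM.

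Genes outside the lists were among the largest differences. NAV3, a microtubule-associated protein, was at 2.02, 3.14, 1.65 and 2.44 CPM in DMSO and 18.5, 17.4, 23.7 and 25.4 CPM in MI-503 (log2 fold change 3.20, SE 0.15, edgeR adjusted p = 9.20e-14). C3, the central complement component, was at 3.39, 4.71, 3.30 and 1.93 CPM in DMSO and 23.9, 24.0, 20.6 and 22.3 CPM in MI-503 (log2 fold change 2.76, SE 0.12, edgeR adjusted p = 6.03e-14). HAL, which degrades histidine, rose from 2.06 ± 0.786 to 14.1 ± 1.20 CPM, SLPI, an inhibitor of granule proteases, from 1.39 ± 0.375 to 8.70 ± 1.07 CPM, and MARCKS, an actin and membrane regulator, from 7.26 ± 0.644 to 47.2 ± 4.89 CPM. LOC102724621, an uncharacterized gene, rose from 1.26 ± 0.159 to 9.05 ± 0.584 CPM. It is annotated on a contig of chromosome 22 outside the main sequence, so its count is uncertain. Among falls, TBC1D30, a RAB GTPase activating protein, was at 94.8, 133, 105 and 67.8 CPM in DMSO and 11.6, 15.3, 16.7 and 15.5 CPM in MI-503 (log2 fold change -2.75, SE 0.14, edgeR adjusted p = 5.69e-13). The transcription factors FOXD1 and DLX5 fell from 71.2 ± 7.53 to 15.4 ± 1.11 CPM and from 68.9 ± 5.54 to 20.3 ± 1.64 CPM. EFNA5, an ephrin ligand, fell from 19.8 ± 0.874 to 4.98 ± 0.262 CPM, and the neural adhesion molecule NCAM2 from 29.5 ± 1.07 to 8.55 ± 0.878 CPM.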

How the data were processed

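RNA of MOLM-13 cells was sequenced in paired reads, and the 8 libraries labelled DMSO or MI-503 were compared. The authors trimmed reads (Trimmomatic 0.39), aligned them with STAR (2.7.10a in the submitters' processing notes) to hg38 and deposited raw counts of fragments per gene (featureCounts 2.0.1, exons of the RefSeq annotation, no strand), leaving out fragments that fit several genes or places. Per the file headers the counted alignments had been filtered, by a rule not given in the sources used here, so a low or zero count may also come from that step. Tables of the authors' own fold changes and p-values were not used. Genes were kept by filterByExpr (minimum count 10, minimum total 15), scaled by TMM and tested with edgeR 4.0.16 in R 4.3.3 (quasi-likelihood F test, two-sided, 6 residual degrees of freedom), with Benjamini-Hochberg adjustment over all 13904 genes and calls at 0.05. The SE of a log2 fold change was taken as its size divided by the square root of F. Each ± is the SD over 4 libraries. The script was tested on simulated counts. In 36 gene lists, named members were taken from those called with at least a 2-fold change and a mean of at least 1 CPM (at most 8 a list), or else the 3 with the smallest adjusted p. In 28 families defined by symbol, up to 2 a direction were named. Over all genes, members of lists included, the 10 largest rises and falls were taken. These came from called genes that averaged 5 CPM or more and whose groups did not overlap. Further members were added outside these rules to describe a list, some of them called and others not called or barely counted. Members, lists and families were chosen with earlier results of these data known. Some members are not reported here. Alternatives were other scaling factors, no filter and a stricter one, DESeq2 1.42.0, limma-voom 3.58.1, all 11 libraries in the fit, a replicate block and leaving out each library.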

Additional observations from a re-analysis of the deposited data

Results flagged for a closer look

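Among 758 pairs of a named gene and a group of 4 libraries, 43 held a library far from the other libraries of its group by Dixon's 95% limit for the gap to the nearest of them. Chance alone marks about 1 in 20 groups. DMSO replicate 2 held 23 of the 43 values. Above its group stood several genes that were higher in MI-503, in CPM TLR2 15.25, SIGLEC10 2.87, S100A8 2.287, S100A6 49.42, CCR2 14.13, RPL31 965.9, HAL 3.229, MPO 135.7, KIT 0.6279, CD74 121.0 and CORO1A 346.5. For CCR2 the other DMSO libraries ran from 7.031 to 7.94 CPM, and for MPO from 99.23 to 105.1 CPM. Also above the group in this library were ALDH1A3 at 41.84, PLXNC1 at 55.3, BAG3 at 33.1 and GATA2 at 13.37 CPM. Below the group were H3C12 at 0.8073, PLXNA1 at 68.62, KCNG1 at 24.53, CCNB1 at 141.0, SLC3A2 at 191.7, DUSP6 at 43.64, LMNA at 89.48 and ID2 at 28.03 CPM.

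The other DMSO libraries held 4 such values, ATP5MC3 at 200.4 CPM in replicate 1, KIFC2 at 27.58 and TGFBR1 at 55.85 CPM in replicate 3, all above, and TNFRSF1B at 77.25 CPM in replicate 4, below. MI-503 replicate 1 held NOL6 at 131.2, PTGS1 at 10.54 and ABCE1 at 153.2 CPM below its group, and OIP5-AS1 at 220.9, ASNS at 3.543 and ALOX5AP at 17.29 CPM above it. MT1G at 7.515 and SCARB2 at 32.85 CPM were high in MI-503 replicate 2. In replicate 3 PLXND1 at 507.0, FBL at 7.762, CTSD at 150.1 and VSIR at 80.2 CPM were high, and in replicate 4 AZU1 at 2.301, ATF5 at 21.66 and RUNX1 at 237.4 CPM were high and PLIN2 at 10.4 CPM was low. For FBL the other MI-503 libraries ran from 2.284 to 2.796 CPM.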

How the results depend on the processing

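Of 382 named genes 355 were called, and 330 of these kept their direction and their call under all 16 alternatives. A further 25 lost the call under some alternative, none changed sign, and 6 of the 27 genes not called were called under some alternative. CTSG, CTSB, S100A9, MYB and CENPF lost their call only with all 11 libraries in the fit. The count of genes at least 2-fold higher was 898 without a filter and 330 with the stricter filter, and that of genes at least 2-fold lower 288 and 86, as these settings admit more or fewer scarce genes. Leaving out 1 library gave 3739 to 4206 genes higher, 3696 to 4068 lower, 569 to 707 at least 2-fold higher and 158 to 176 at least 2-fold lower. The share of calls that were higher was 50.6%, and it was 54.3% with upper-quartile scaling and 42.9% with all 11 libraries. Counts of called members in the direction that most calls of a list took stayed within 1.5 times in 571 of 576 list values and 440 of 448 family values. In the less frequent direction, where counts are small, this held for 548 of 576 and 411 of 448. With all 11 libraries 1 ATF4 target was called higher in place of 3, 3 folding factors of the endoplasmic reticulum in place of 8 and 2 initiation factors in place of 7. Genes of migration and the cytoskeleton called lower were 5 in place of 3 without DMSO replicate 2, without a filter and with DESeq2, and complex I genes called higher 1 in place of 2 without DMSO replicate 2 or 3 or MI-503 replicate 3. Of the ERK feedback genes 7 were called higher, but 4 without a filter, 3 with all 11 libraries and 4 to 6 when 1 library was left out. Without a filter 2 erythroid and megakaryocytic and 5 lymphoid markers were called higher in place of 1 and 3. The medians of 7 lists and families changed sign under some setting, those of ERK feedback, interferon-stimulated, BCL2 family, lymphoid marker, vacuolar ATPase, snoRNA host and microRNA host genes. Where the tested genes and libraries stayed the same, the cause of a difference was not tested. Whether the replicate numbers pair the samples was not settled. DMSO and MI-503 libraries of the same number had correlations of -0.257, 0.289, 0.064 and 0.19 between their deviations from the group means over 9988 genes. For libraries of different numbers the correlations ran from -0.321 to 0.321. With a replicate block 4121 genes were higher and 4026 lower, and no called gene that was named lost its call, while FOS and SLC7A11 gained one. Depth limits the scarce genes, since a listed member at 0 counts may be low or may lie on several contigs.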

Other observations

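Transporters, channels and regulatory genes outside the groups above are described here. Among 217 tested solute carriers 75 were higher and 60 lower, close to the percentages for all genes. SLC44A1, a choline transporter, was at 23.2, 21.8, 24.4 and 22.6 CPM in DMSO and 57.1, 59.9, 59.5 and 58.9 CPM in MI-503 (log2 fold change 1.36, SE 0.045, edgeR adjusted p = 3.56e-16). SLC48A1, which moves heme out of endosomes, rose from 14.5 ± 0.637 to 35.2 ± 2.21 CPM, while SLC38A1, a glutamine importer, fell from 176 ± 8.82 to 117 ± 4.67 CPM. Of 33 tested potassium channel genes 12 were higher (36.4%) and 8 lower (24.2%), near the 29.3% and 28.6% of all tested genes. KCNQ1 rose from 5.64 ± 0.342 to 14.4 ± 1.51 CPM and KCNN2, a calcium-activated channel, fell from 38.6 ± 1.152 to 16.6 ± 2.93 CPM (log2 fold change -1.21, SE 0.079, edgeR adjusted p = 2.69e-11). ABC transporters were higher in 14 and lower in 6 of 25 tested.

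Of 420 tested zinc finger genes named ZNF, 144 were higher and 45 lower, with a median log2 fold change of 0.10. ZNF521, a cofactor of immature blood cells, was an exception, at 84.6, 86.3, 81.5 and 83.7 CPM in DMSO and 33.4, 33.8, 28.7 and 28.6 CPM in MI-503 (log2 fold change -1.43, SE 0.050, edgeR adjusted p = 9.89e-16). Long noncoding RNAs named LINC were mostly too scarce, since 1332 of 2115 had no count and 166 were tested, of which 71 were higher and 18 lower. With the stricter filter 70 were tested, 39 of them higher and 10 lower. LINC00926 rose from 16.6 ± 2.701 to 59.7 ± 6.61 CPM. Of 325 tested antisense transcripts 76 were higher (23.4%) and 33 lower (10.15%), both under the 29.3% and 28.6% of all tested genes. Counting ignored strand, so reads of an antisense gene and its partner cannot be told apart where they overlap, as for JMJD1C-AS1, which fell from 8.24 ± 0.853 to 1.44 ± 0.0737 CPM and shares 36.6% of its exon bases.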
